A study of Mus musculus with 24 samples.

Results

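Ventral prostates of SWR and 129X1 mice were compared, 2 of the 6 inbred strains of the series, with 4 biological replicates of each strain. The series measured expression in the gland of parental strains in search of genes that modify cancer. The members were these 8 of the 24 arrays, chosen by sample title, and on each array all 22626 probe sets other than the 64 control rows in a table of 22690. Both groups were untreated wild-type mice, 8 weeks old, on a standard diet, and differed in the labels by strain only. Total RNA of the lobe was hybridised to Affymetrix mouse expression arrays, on which a probe set is a group of short probes for a transcript. The labels do not say whether a replicate was 1 animal or a pool, so the p-values measure the spread between these samples, which may be technical in part. The other 16 arrays (AKR, FVB, BALB/c and C57BL/6) entered the same fit to estimate that spread, and they show on which side of a difference the other strains lay.

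In mice the ventral lobe of the prostate is a secretory gland, lined by luminal epithelial cells that export large amounts of protein under androgen control. Such cells thread new proteins into the endoplasmic reticulum (ER), fold and glycosylate them, and carry them through the Golgi to the lumen. Interferon-induced genes are a separate programme, which cells switch on through interferon receptors and transcription factors such as Irf7, and which takes in much of class I antigen presentation. SWR mice are known to carry haplotype q of the mouse histocompatibility complex H2, and 129X1 mice haplotype b.

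Intensities below are the deposited values rescaled to 1 trimmed mean per array. Strain differences in the sequence under the short probes can alter a signal, and this was not tested. Differences are SWR minus 129X1 on the scale of log2(intensity + 16), and folds are the antilog of these differences, so folds of faint transcripts are understated. A probe set was called when its adjusted p was under 0.05 in limma's moderated test over all 22626 probe sets. By that rule 1399 probe sets differed (6.18%), 751 higher in SWR (3.32%) and 648 higher in 129X1 (2.86%). Among all 15 pairs of strains this number ranked 11 from the top, in a range from 958 for SWR against FVB (4.23%) to 3083 for SWR against BALB/c (13.6%). Of the called probe sets 277 (1.22% of those tested) differed at least 2-fold, and 32 at least 4-fold, 20 of these higher in SWR and 12 higher in 129X1. The count of 2-fold differences followed the constant added before the logarithm, with 109 at a constant of 64 and 422 at a constant of 4. In 1289 of the called probe sets the 4 arrays of one strain all lay above the 4 of the other, and such a separation without regard to the test was seen in 2846 probe sets (12.6%).

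**Figure D1:**
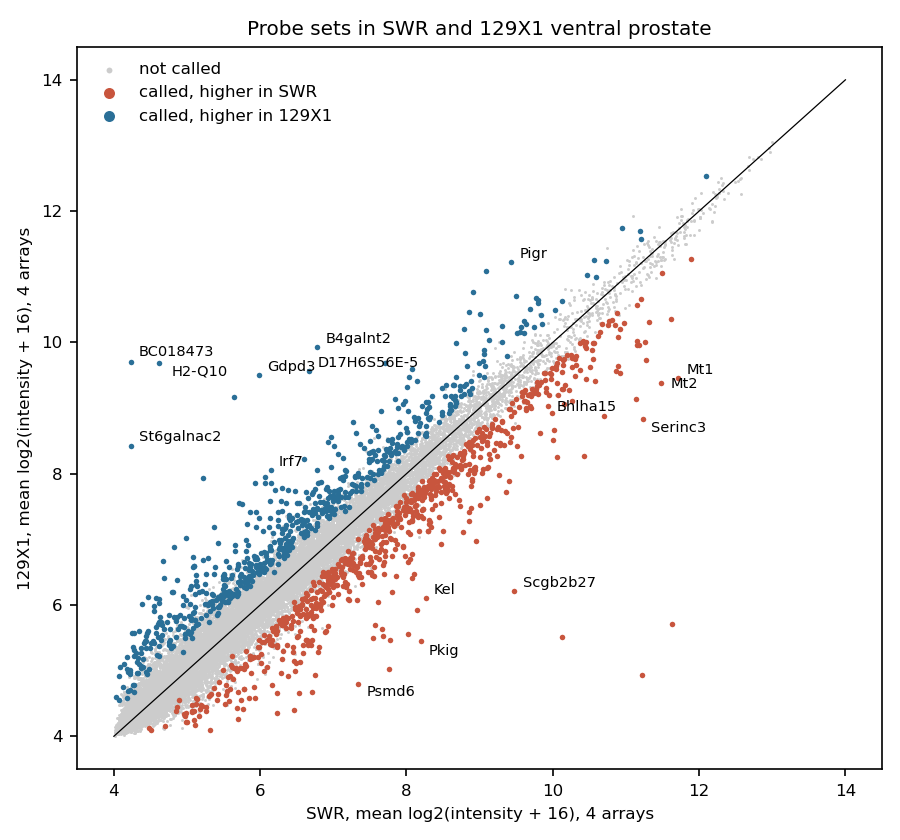
Mean log2(intensity + 16) of each probe set over the 4 SWR arrays (x axis) and the 4 129X1 arrays (y axis). Grey points were not called, red points were called higher in SWR (751), blue points higher in 129X1 (648), and the line marks equal levels; BC018473, H2-Q10 and St6galnac2 lie at the left edge, with SWR means from 4.23 to 4.61.

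The 2 widest differences of all were in probe sets that the platform table pairs with no gene symbol, and they were singled out after their values were seen. Probe set 1455869_at read 2246, 2280.3, 2366 and 2631 in SWR replicates 1 to 4 and 7.92, 25.8, 8.83 and 19.1 in 129X1 replicates 1 to 4. It was high on every SWR array and at the bottom of the scale on every 129X1 array, a log2 difference of 6.29 ± 0.30 (SE). Its mean log2 level was 11.41 in FVB and 10.24 in C57BL/6, beside 4.99 in AKR and 5.20 in BALB/c, so 2 of the other strains lay with SWR and 2 with 129X1. Probe set 1431213_a_at read 2462, 3695, 3201 and 3341 in SWR replicates 1 to 4 and 36.2, 38.1, 37.7 and 34.2 in 129X1 replicates 1 to 4, and the same strains, FVB (11.44) and C57BL/6 (12.22), lay with SWR. A further probe set, 1451704_at, which the platform table assigns to several genes, read 927, 938, 1372 and 1254 in SWR replicates 1 to 4 and 36.4, 25.2, 30.9 and 27.3 in 129X1 replicates 1 to 4. Every SWR array was far above every 129X1 array, and BALB/c was higher still, with a log2 mean of 13.05 beside 10.13 in SWR.

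Many genes of a list for protein transport into and through the secretory pathway were higher in SWR. The list takes in the transcription factors Bhlha15 and Creb3l4. Like the other lists, it was chosen with earlier results of these data known. Of 26 measured genes of secretory transport 12 were called higher in SWR and 0 higher in 129X1, each by its brightest probe set. Among the genes not called, Spcs1 had 1 of 3 probe sets called higher in SWR. Srp9 had 1 of 2 called higher in 129X1. Among all 12393 measured genes, with 1 probe set each, 6.79% were called, 3.64% were called higher in SWR and 3.15% higher in 129X1. The median difference of the list was 0.32, beside -0.03 over all genes, and 24 of the 26 genes had a difference above 0. The widest difference was in Bhlha15, a transcription factor that sets up the secretory apparatus of exocrine cells. Its probe set read 2753, 2489.7, 1970.0 and 1843 in SWR replicates 1 to 4 and 558, 499, 676 and 478 in 129X1 replicates 1 to 4. The strains did not overlap, and the difference was 3.99-fold (log2 interval 1.68 to 2.31), with an adjusted p of 6.7e-09 in limma. A second probe set of Bhlha15 was also called, 3.19-fold higher in SWR. In bulk tissue, here and below, fewer cells of a type and less RNA per cell cannot be told apart.

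Creb3l4, an ER-bound transcription factor found in prostate epithelium, read 166, 106, 127 and 132 in SWR replicates 1 to 4 and 62.2, 47.2, 61.4 and 40.6 in 129X1 replicates 1 to 4. No array of one strain reached the other, and the difference was 1.11 ± 0.18 (SE), or 2.16-fold (adjusted p = 3.6e-04, limma). Sec11c, a subunit of the signal peptidase, was 1.57-fold higher in SWR. Tram1, which helps new chains enter the ER, differed by 0.59 ± 0.09 (SE) in 1 of 2 probe sets. Sec24d, a coat protein of vesicles that leave the ER, was 1.48-fold higher. Sec61a1, the channel through which proteins enter the ER, was 1.42-fold higher, with 3 of its 6 probe sets called. Lman1 and Mcfd2, which together form a cargo receptor, were 1.44-fold and 1.29-fold higher. The Lman1 values overlapped between strains, and 2 of its 4 probe sets were called. The remaining 4 called genes, Spcs3, Copb2, Ssr4 and Sar1a, differed by 1.33-fold to 1.36-fold. Copb2 and Sar1a were each called in 1 of 2 probe sets and Ssr4 in 1 of 3. The list's count was 7 when only the 8 arrays of these strains were fitted, and also 7 without both arrays numbered 4. Ssr4 was the least stable of the calls, lost under 13 of 19 alternative settings with an adjusted p of up to 0.18 in limma.

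Genes of ER folding and of the unfolded protein response, by which cells enlarge their folding capacity, were called higher in SWR in 6 of 30 cases and higher in 129X1 in 0. That was 20% of the list, beside 6.79% of all genes called in either direction. The list median was 0.33, and 26 of the 30 differences were above 0. Edem1, which passes misfolded glycoproteins on for degradation, read 958, 865, 605 and 604 in SWR replicates 1 to 4 and 317, 325, 282 and 249.8 in 129X1 replicates 1 to 4. Every SWR array lay above every 129X1 array, the difference was 1.30 ± 0.16 (SE), or 2.46-fold, and both probe sets of the gene were called (adjusted p = 1.2e-05, limma). Pdia4 and Pdia6 are disulphide isomerases of the ER. Pdia4 read 364, 260.4, 346 and 242 in SWR replicates 1 to 4 and 139, 116, 166 and 87.2 in 129X1 replicates 1 to 4, a difference of 2.25-fold with no overlap. Pdia6 read 2562, 2598, 2036 and 1904 in SWR replicates 1 to 4 and 892, 1058, 1155 and 1023 in 129X1 replicates 1 to 4, 2.17-fold higher in SWR, again with no overlap. In both genes 1 of 2 probe sets was called.

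Sdf2l1, an ER chaperone partner, was 1.70-fold higher in SWR, a call lost under 6 of 19 alternative settings, among them both the fit of only the 8 arrays and the one without both arrays numbered 4. The stress sensor Eif2ak3 was 1.47-fold higher in 1 of 3 probe sets and Sel1l, of the ER degradation complex, 1.40-fold in 3 of 4. Other members were not called in their brightest probe set. Hspa5 differed by 0.33 (95% interval -0.01 to 0.67), Hsp90b1 by 0.33 (0.06 to 0.60), and the stress-induced transcription factors Xbp1 by 0.18 (-0.01 to 0.36) and Ddit3 by -0.19 (-0.71 to 0.33). Canx, Hyou1 and Xbp1 each had 1 fainter probe set called higher in SWR (by 0.80, 1.17 and 0.61), with 2 others of Canx, 2 of Hyou1 and 3 of Xbp1 not called. Dnajc3 likewise had 1 of its 5 probe sets called higher in SWR. Creld2 and Manf had adjusted p-values just above the threshold, 0.0502 and 0.059 in limma. Without SWR replicate 4 the list had 11 genes called higher in SWR.

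**Figure D2:**
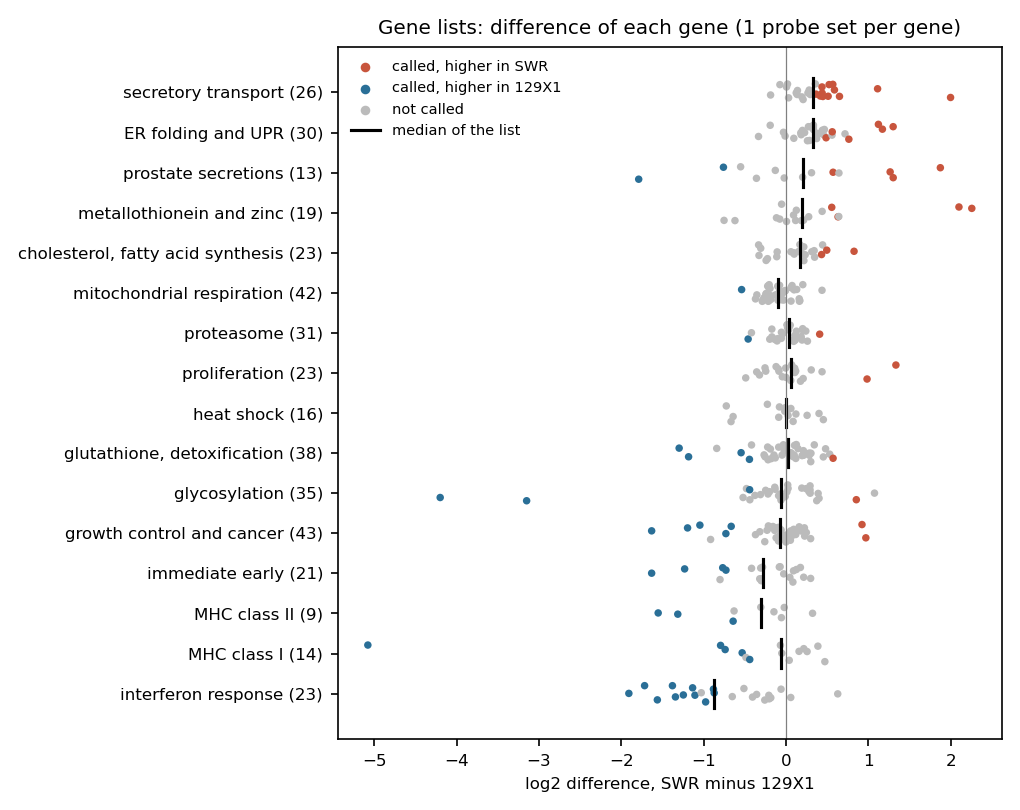
Difference SWR minus 129X1 (log2) of each measured gene, 1 probe set per gene, in 16 of the gene lists, with the number of measured genes in parentheses (UPR, unfolded protein response). Red points were called higher in SWR, blue points higher in 129X1, grey points were not called, and bars mark list medians, from -0.87 for interferon response to 0.33 for ER folding.

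Secreted products of the prostate did not move one way. Of 13 measured genes 4 were called higher in SWR and 2 higher in 129X1, with a list median of 0.20. Together these calls made up 46.2% of the list, beside 6.79% of all genes. Clca1, a secreted regulator of chloride channels in mucous epithelia, read 78.8, 64.5, 75.2 and 88.6 in SWR replicates 1 to 4 and 21.7, 1.88, 15.1 and 3.33 in 129X1 replicates 1 to 4. The SWR values all lay above the 129X1 values, with a difference of 1.87 ± 0.23 (SE), or 3.66-fold (adjusted p = 1.0e-05, limma), in 1 of 2 probe sets. Agr2, an ER isomerase that helps fold mucins, read 2219.7, 2034, 1762 and 1442 in SWR replicates 1 to 4 and 762, 891, 822 and 530.2 in 129X1 replicates 1 to 4, 2.46-fold higher in SWR in 1 of 2 probe sets. Azgp1, a secreted zinc-binding glycoprotein, read 2989, 2814, 3476 and 3247 in SWR replicates 1 to 4 and 1203, 1229.5, 1264 and 1486 in 129X1 replicates 1 to 4, 2.40-fold higher. The secreted peroxidase Gpx3 was 1.48-fold higher, a call lost under 8 of 19 alternative settings.

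Pigr, the receptor that carries polymeric immunoglobulin across epithelia, went the other way. It read 773, 644, 742 and 558 in SWR replicates 1 to 4 and 2564, 2656, 2804 and 1652 in 129X1 replicates 1 to 4. The lowest 129X1 value was that of replicate 4, and it was still above all 4 SWR values. The difference was -1.79 ± 0.18 (SE), or 3.46-fold higher in 129X1 (adjusted p = 6.2e-07, limma), with both probe sets called. Apof, an apolipoprotein, was 1.69-fold higher in 129X1, a call lost under 10 of 19 alternative settings. Other known secretory products of the gland were not called. The protease inhibitor Spink1 differed by -0.13 (95% interval -0.49 to 0.23), Msmb by 0.31 (-0.09 to 0.71) and Pbsn (probasin) by 0.20 (-0.56 to 0.96).

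Among 10 measured genes of the androgen axis 1 (10%) was called, near the 6.79% of all genes. It was Homer2, a scaffold protein, 1.88-fold higher in SWR (adjusted p = 0.0035, limma). The list median was -0.03. Fkbp5, an androgen receptor target, differed by -0.11 (95% interval -0.39 to 0.17), Tmprss2 by -0.02 (-0.36 to 0.33), and the prostate transcription factors Hoxb13 and Foxa1 by 0.10 (-0.13 to 0.33) and 0.19 (-0.04 to 0.42).

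Mt1 and Mt2 encode metallothioneins, small cysteine-rich proteins that bind zinc and other metals, and their transcription is driven by metal response elements bound by Mtf1. Their upstream sequences are shown because these neighbouring genes were both over 4-fold higher in SWR. They are the 250 bases before the RefSeq start site in GRCm38.p6, which is C57BL/6J sequence, 5′ to 3′, with capitals marking each match to TGCNCNC on either strand, no match overlapping another.
Mt1 (chr8:94178839-94179088, plus strand): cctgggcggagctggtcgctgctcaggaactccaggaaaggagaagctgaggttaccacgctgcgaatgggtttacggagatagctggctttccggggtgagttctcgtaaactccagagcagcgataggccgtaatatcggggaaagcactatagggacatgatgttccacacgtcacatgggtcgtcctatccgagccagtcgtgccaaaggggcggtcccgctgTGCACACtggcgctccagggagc
Mt2 (chr8:94172368-94172617, plus strand): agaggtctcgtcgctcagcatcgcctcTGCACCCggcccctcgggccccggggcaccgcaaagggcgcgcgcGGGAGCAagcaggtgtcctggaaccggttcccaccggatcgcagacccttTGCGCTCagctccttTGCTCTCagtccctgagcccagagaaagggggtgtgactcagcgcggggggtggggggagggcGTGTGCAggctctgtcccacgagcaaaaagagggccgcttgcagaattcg
The Mt1 window held 1 match and the Mt2 window 5. Matches downstream of the start site that RefSeq gives were not counted, so both counts depend on that site. This short motif was also in 47.2% of the same windows of all 27025 genes, so a match is a description only.

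Mt1 read 3195, 3333, 2939 and 3942 in SWR replicates 1 to 4 and 734, 853, 656 and 538 in 129X1 replicates 1 to 4. Mt2 read 2723, 2593, 2749 and 3291 in SWR replicates 1 to 4 and 562, 791, 539 and 734 in 129X1 replicates 1 to 4. In both genes every SWR array was several times brighter than every 129X1 array. The differences were 2.25 ± 0.14 (SE), or 4.77-fold, for Mt1 and 2.10 ± 0.13 (SE), or 4.28-fold, for Mt2, with adjusted p-values of 2.1e-10 and 1.7e-10 in limma. A second, faint probe set of Mt1 was not called (difference 0.71, SE 0.30). All 4 other strains were nearer to SWR than to 129X1 in both genes, with log2 means from 11.10 (AKR) to 12.07 (BALB/c) for Mt1, beside 9.45 in 129X1. Of the 19 measured genes of the metallothionein and zinc list, 4 were called higher in SWR and 0 higher in 129X1. That was 21.1% of the list, beside 6.79% of all genes. The other called genes were zinc transporters, Slc39a11 (1.55-fold) and Slc30a7 (1.47-fold). Mtf1 was not called.

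The named genes are the 15 with the largest difference in each direction among 644 genes with a called, non-overlapping probe set and a log2 mean of at least 7 in the brighter strain, each gene standing by the brightest of its probe sets that passed. A fainter probe set can differ more, as in Cd59a (2.46) and Vamp3 (2.22), whose brightest passing probe sets differed by 1.11 and 0.55. On the SWR side Scgb2b27, a subunit of the androgen-binding proteins, came first. It read 434, 419, 1236 and 1026 in SWR replicates 1 to 4 and 66.3, 44.8, 78.4 and 48.5 in 129X1 replicates 1 to 4. SWR replicates 3 and 4 were well above replicates 1 and 2, and all 4 were above 129X1, by 9.57-fold on average (adjusted p = 2.0e-05, limma). Its neighbour on chromosome 7, Scgb1b27, which encodes a partner subunit, read 124, 115, 371 and 225 in SWR replicates 1 to 4 and 27.2, 33.6, 53 and 25.6 in 129X1 replicates 1 to 4, with the highest value again in SWR replicate 3. FVB stood higher than SWR in Scgb2b27, with a log2 mean of 10.73 beside 9.47.

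Serinc3, a membrane protein of the serine incorporator family, read 2588, 2053, 2552 and 2419.6 in SWR replicates 1 to 4 and 443, 444, 400.0 and 469 in 129X1 replicates 1 to 4. The difference was 2.41 ± 0.13 (SE), or 5.30-fold, all 5 of its probe sets were called in this direction, and the other 4 strains had log2 means from 11.26 to 11.49, beside 11.23 in SWR and 8.83 in 129X1. Pkig, an inhibitor of protein kinase A and the next measured gene on chromosome 2, read 278, 277, 295 and 259.5 in SWR replicates 1 to 4 and 12.5, 34.1, 45.6 and 26.4 in 129X1 replicates 1 to 4. It was 6.67-fold higher in SWR, and both of its probe sets were called. Psmd6, a proteasome subunit, read 141, 134, 166 and 145 in SWR replicates 1 to 4 and 17.3, 12.6, 14.7 and 4.83 in 129X1 replicates 1 to 4. Its other, brighter probe set differed by only 0.09 (SE 0.10) and was not called, so the probe sets of Psmd6 disagreed.

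A run of 3 neighbouring genes on chromosome 6 was higher in SWR. Kel, an endopeptidase known as a blood group antigen, read 269, 307, 311 and 279 in SWR replicates 1 to 4 and 51.1, 41.9, 54.7 and 65.8 in 129X1 replicates 1 to 4, and Trpv6, a calcium channel of epithelia, read 748, 654, 618 and 621 in SWR replicates 1 to 4 and 185, 237, 259 and 205 in 129X1 replicates 1 to 4. Neither gene overlapped between strains, with 4.46-fold and 2.86-fold differences, and Ephb6, the third of the run, differed by 1.08. The proton pump subunit Atp6v1c2 read 748, 733, 576 and 535 in SWR replicates 1 to 4 and 214, 211, 138 and 228 in 129X1 replicates 1 to 4, 3.12-fold higher in SWR. It stood in a run on chromosome 12 with Pdia6, described above, and Odc1, the first enzyme of polyamine synthesis. Odc1 read 1136, 1193, 1128 and 1023 in SWR replicates 1 to 4 and 503, 537, 517 and 526 in 129X1 replicates 1 to 4, 2.11-fold higher in SWR with all 3 probe sets called (adjusted p = 3.9e-08, limma). The gene bodies of Pdia6 and Atp6v1c2 overlap in RefSeq.

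The remaining 4 named genes of the SWR side lay between 3.03-fold and 3.92-fold. They were the membrane protein Tmem45a, the protease inhibitor Ctla2a (3.65-fold), the cytochrome P450 Cyp2b10 (3.19-fold, 3 of 3 probe sets) and the phosphodiesterase Smpdl3a. Tmem45a read 559, 389, 483 and 491 in SWR replicates 1 to 4 and 104, 99.4, 99 and 141 in 129X1 replicates 1 to 4, with 129X1 replicate 4 the highest of its strain and still below SWR.

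**Figure D3:**
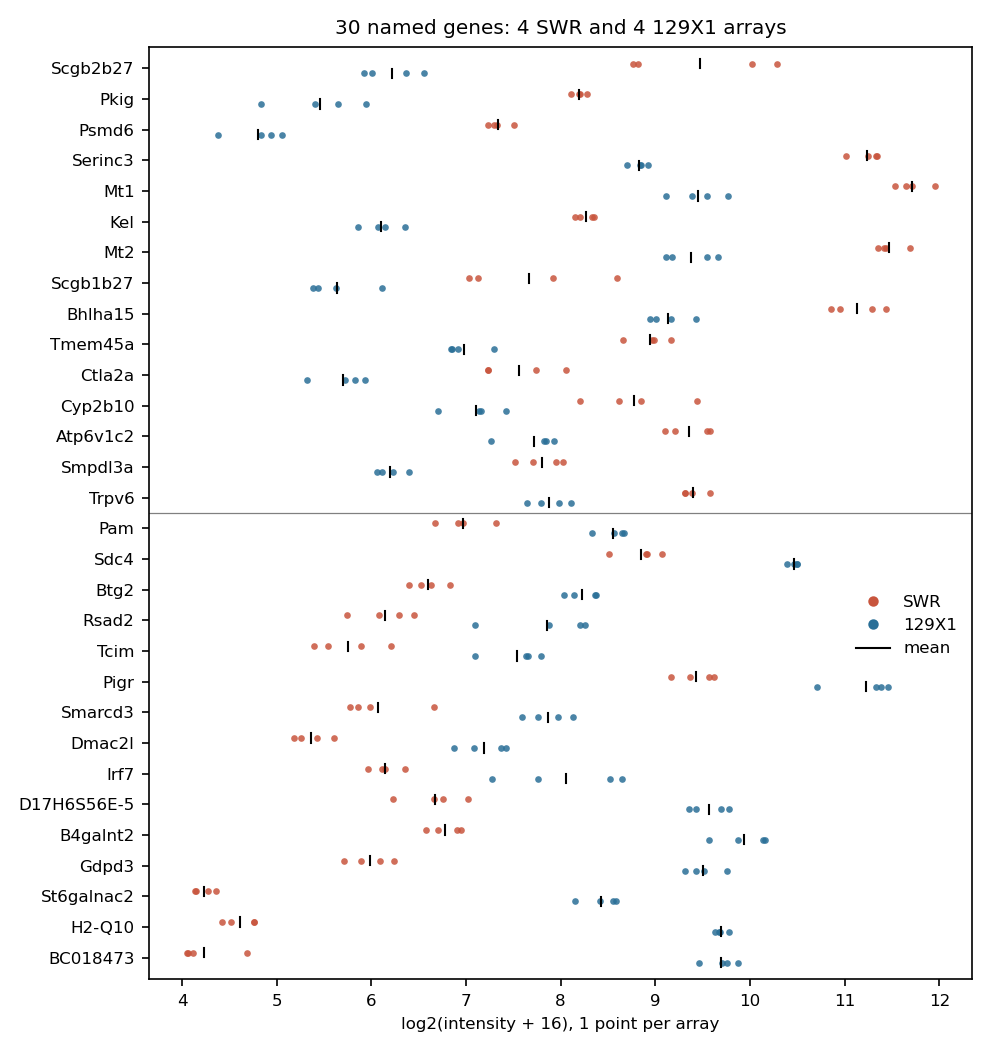
Values of the 30 named genes on a log2(intensity + 16) axis, 1 point per array, with SWR in red, 129X1 in blue and bars at the means of 4 arrays. The upper 15 genes were higher in SWR, by log2 differences from 1.52 to 3.26, and the lower 15 higher in 129X1, by differences from -1.59 to -5.47; no gene has overlapping strains, which the choice of genes required.

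On the 129X1 side the widest difference was in BC018473, a long noncoding RNA, on chromosome 11. It read 0.541, 1.39, 0.769 and 9.68 in SWR replicates 1 to 4 and 687, 919.9, 847 and 821 in 129X1 replicates 1 to 4. It was bright on every 129X1 array and near 0 on every SWR array, where replicate 4 was the highest, a difference of -5.47 ± 0.12 (SE) (adjusted p = 5.1e-19, limma). The AKR, FVB, BALB/c and C57BL/6 means, from 4.13 to 4.18, were as low as that of SWR (4.23). A second probe set of BC018473 was faint in both strains and not called (difference -0.65, SE 0.21). The neighbouring gene St6galnac2, which adds sialic acid to O-linked sugar chains, read 1.73, 1.57, 3.29 and 4.54 in SWR replicates 1 to 4 and 361, 268, 325 and 369 in 129X1 replicates 1 to 4. It too was raised in 129X1 and low in the other 5 strains (log2 means from 4.19 to 4.34, beside 8.43 in 129X1). Its second probe set was faint and not called (difference 0.19, SE 0.22). Cygb and Snhg16 stood next to them in the same run, with differences of -0.89 and -1.30.

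B4galnt2, the enzyme that makes the Sda sugar antigen, read 104, 88.5, 107 and 79.3 in SWR replicates 1 to 4 and 1110.4, 919.8, 1127 and 743 in 129X1 replicates 1 to 4. The difference was -3.15 ± 0.14 (SE), or 8.88-fold higher in 129X1 (adjusted p = 1.3e-12, limma), with both probe sets called. AKR (9.18) and FVB (9.06) lay nearer to 129X1 (9.93), and BALB/c (7.56) and C57BL/6 (7.87) nearer to SWR (6.78). Of 35 measured glycosylation genes 3 were called higher in 129X1, the third being Galnt7 (1.36-fold, 1 of 3 probe sets). Galnt7 lost its call under 4 of 19 alternative settings. The 1 called higher in SWR was Galnt10 (1.81-fold, 1 of 2 probe sets). Both Galnt genes encode enzymes that start O-linked chains. Calls made up 11.4% of the list, beside 6.79% of all genes. The list median was -0.06.

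Gdpd3, a phosphodiesterase that cleaves lysophospholipids, read 59.5, 36.3, 52.1 and 43.5 in SWR replicates 1 to 4 and 621, 714, 672 and 849.8 in 129X1 replicates 1 to 4. It was 11.5-fold higher in 129X1 with no overlap, and FVB, at a log2 mean of 9.21, was the 1 other strain near 129X1 (9.50). D17H6S56E-5, a transcript of the H2 region beside Vars on chromosome 17, read 58.9, 92.2, 85.4 and 114 in SWR replicates 1 to 4 and 864, 674, 812 and 639 in 129X1 replicates 1 to 4. Both of its probe sets were called, this one 7.45-fold higher in 129X1, and Vars, a tRNA synthetase, differed by -1.29. Pam, which amidates peptide hormones, read 104, 86.1, 109 and 143 in SWR replicates 1 to 4 and 361, 384, 392 and 307 in 129X1 replicates 1 to 4, a difference of -1.59 ± 0.17 (SE) (adjusted p = 1.3e-06, limma). Mme (neprilysin), which degrades small peptides, was 2.46-fold higher in 129X1 with both probe sets called, and Tac1, the precursor of substance P, 1.78-fold higher in SWR. These 3 were the called genes among 12 of the neuropeptide list (25%, beside 6.79% of all genes), and the list median was 0.07.

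The antiproliferative gene Btg2 read 76.1, 68.1, 98.2 and 83 in SWR replicates 1 to 4 and 267, 246, 314 and 315 in 129X1 replicates 1 to 4. It was 3.10-fold higher in 129X1 in 1 of 2 probe sets, and all 4 other strains lay nearer to 129X1. The other named genes of this side were Sdc4, a cell surface proteoglycan (3.06-fold, 1 of 2 probe sets), Smarcd3, a chromatin remodelling subunit (3.46-fold), Dmac2l, a coupling factor of the mitochondrial ATP synthase (3.54-fold), and Tcim, a small regulatory protein (3.45-fold). All 30 named genes stayed called in the same direction under all 19 alternative settings.

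Many interferon-induced genes were higher in 129X1. Of 23 measured genes 11 (47.8%) were called higher in 129X1 and 0 higher in SWR, with a list median of -0.87. Over all genes 6.79% were called in either direction. Such genes are bound by interferon-activated factors at an element with the core GAAA, any 2 bases, then GAAA again. It was found in the 250 bases upstream of 4 of 9 called genes that had such a window (44.4%), of 4 of 8 that were not called (50%) and of 3.46% of all 27025 genes. The stretches of the 4 called genes that hold it are printed from RefSeq GRCm38.p6, 5′ to 3′ on the gene's strand, with matches on either strand in capitals; in Oas1a 2 matches overlap.
Rsad2 (chr12:26456533-26456602, minus strand): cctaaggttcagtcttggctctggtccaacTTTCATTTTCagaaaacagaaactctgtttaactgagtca
Ifit1 (chr19:34640755-34640843, plus strand): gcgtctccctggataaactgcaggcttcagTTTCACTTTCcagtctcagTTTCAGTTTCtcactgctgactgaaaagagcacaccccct
Ifit3 (chr19:34583343-34583446, plus strand): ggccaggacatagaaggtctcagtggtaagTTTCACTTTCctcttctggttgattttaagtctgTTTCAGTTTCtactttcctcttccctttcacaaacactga
Oas1a (chr5:120907526-120907575, minus strand): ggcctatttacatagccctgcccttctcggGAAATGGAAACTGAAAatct

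Irf7, a transcription factor that amplifies the response, read 65.7, 53, 54.9 and 46.3 in SWR replicates 1 to 4 and 386, 201, 351 and 139 in 129X1 replicates 1 to 4. The strains did not overlap, but 129X1 replicate 4 stood lowest and replicates 1 and 3 highest. The difference was -1.91 ± 0.21 (SE), or 3.76-fold (adjusted p = 2.3e-06, limma). Rsad2 (viperin), an antiviral enzyme, read 51.5, 37.5, 71.6 and 62.5 in SWR replicates 1 to 4 and 279.9, 219, 291 and 120.3 in 129X1 replicates 1 to 4, again with 129X1 replicate 4 lowest. It was 3.29-fold higher in 129X1 with all 3 probe sets called. Ifit1, which binds foreign RNA, read 45.1, 39.1, 58 and 49 in SWR replicates 1 to 4 and 199, 154, 190.1 and 73.5 in 129X1 replicates 1 to 4, and Ifit3, its partner and neighbour on chromosome 19, read 24.2, 31.6, 29.2 and 37.5 in SWR replicates 1 to 4 and 125, 94.5, 101 and 43.5 in 129X1 replicates 1 to 4. They were 2.54-fold and 2.20-fold higher in 129X1. Oas1a, an RNA sensor of the oligoadenylate synthetase family, read 99.6, 144, 136 and 135 in SWR replicates 1 to 4 and 318, 194, 364 and 164 in 129X1 replicates 1 to 4, 1.83-fold higher, a call lost under 4 of 19 alternative settings.

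The other called genes included Rtp4 (2.96-fold, 1 of 2 probe sets) and the adjacent Oasl2 (2.60-fold) and Oasl1 (1.84-fold). The rest were Usp18, which limits interferon signalling (2.37-fold), the RNA sensor Ifih1 (2.15-fold) and Ifi35 (1.97-fold). Not every member followed. Mx1, an antiviral GTPase, differed by 0.63 (95% interval 0.13 to 1.12), Gbp2 by -0.06 (-0.35 to 0.23) and Stat2 by -0.26 (-0.54 to 0.02), none of them called. The list score, the mean log2 level of the list's genes after each was centred over 24 arrays, ranged from -0.47 to -0.35 in SWR. In 129X1 it was 0.61, 0.22, 0.57 and -0.10 in replicates 1 to 4, so the spread within 129X1 was wide. Without both arrays numbered 4 the list had 12 genes called, and leaving out single arrays gave 10 to 13. Immune cell markers read beside it showed 0 of 8 T cell genes called and 1 of 10 macrophage genes (Cd14, 1.49-fold higher in 129X1). Of 7 B cell genes 1 was called (Ms4a1, 1.85-fold higher in 129X1, 1 of 2 probe sets). These immune cell counts are too small to set apart from the 6.79% of all genes called. T cell scores ranged from -0.24 to -0.11 in SWR and from -0.05 to 0.13 in 129X1, B cell scores from -0.45 to 0.02 and from -0.16 to 0.17, and macrophage scores from -0.11 to 0.03 and from -0.14 to 0.11. The part of immune cells in the interferon and antigen presentation results was not tested. Among the T cell markers Cd3e had mean intensities of 13.6 in SWR and 18.9 in 129X1, near the constant added.

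Class I genes present peptides to T cells. Of 14 measured genes of that pathway 5 (35.7%) were called higher in 129X1 and 0 higher in SWR. Over all genes 6.79% were called in either direction. The list median was -0.06. H2-Q10, which encodes a secreted class I molecule, read 6.93, 11, 5.49 and 11 in SWR replicates 1 to 4 and 801, 775, 809 and 863 in 129X1 replicates 1 to 4. It was bright on every 129X1 array and at the bottom of the scale in SWR, a difference of -5.08 ± 0.24 (SE) (adjusted p = 2.2e-12, limma). AKR (9.44) and C57BL/6 (7.94) also gave a high signal, and FVB (4.52) and BALB/c (5.37) lay with SWR. H2-K1, a classical class I gene, read 2353, 2055, 1731 and 1721 in SWR replicates 1 to 4 and 3455, 2915, 4353 and 3025 in 129X1 replicates 1 to 4, 1.74-fold higher in 129X1 with 3 of 4 probe sets called. Tap1, which pumps peptides into the ER, was 1.67-fold higher in 129X1, with 1 of 4 probe sets called. The immunoproteasome subunit Psmb10 was 1.45-fold higher and the loading factor Tapbp 1.36-fold (1 of 2 probe sets). The last pair lost its calls under 11 and 8 of 19 alternative settings. H2-D1, the other classical gene, differed by 0.47 (95% interval 0.17 to 0.77) and B2m, the shared light chain, by 0.04 (-0.31 to 0.39).

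Of 9 measured class II genes 3 (33.3%, beside 6.79% of all genes) were called higher in 129X1 (list median -0.31). The class II chains H2-Eb1 and H2-Aa are neighbours. H2-Eb1 read 122, 73.6, 117 and 119 in SWR replicates 1 to 4 and 333, 343, 369.8 and 327 in 129X1 replicates 1 to 4, 2.93-fold higher in 129X1 with an adjusted p of 9.2e-08 in limma. H2-Aa read 193, 234, 282 and 267 in SWR replicates 1 to 4 and 556, 531, 797 and 646 in 129X1 replicates 1 to 4, 2.49-fold higher in 1 of 2 probe sets. H2-DMb2 was 1.56-fold higher with overlapping values, a call lost under 14 of 19 alternative settings. Near-identical copies within the H2 families can share probes, so a value may mix several genes.

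Genes of growth control were called in both directions. Among 43 genes of growth control and cancer (16.3% called) 5 were called higher in 129X1 and 2 higher in SWR (median -0.08). Those higher in 129X1 were Btg2, the surface antigen Psca (2.29-fold), the stress gene Gadd45g (2.07-fold), the receptor Erbb2 (1.66-fold) and cyclin D1, Ccnd1 (1.59-fold, 3 of 3 probe sets). Ccnd1 lost its call under 4, Psca under 3 and Erbb2 under 1 of 19 alternative settings. The cell cycle inhibitor Cdkn1a was 1.89-fold and the DNA damage kinase Atm 1.96-fold higher in SWR. Of 23 proliferation genes 2 (8.7%) were called, both higher in SWR, beside 6.79% of all genes, and the list median was 0.06. They were Mcm6, of the replication helicase (2.52-fold), and Cdk1 (1.98-fold), whose call was lost under 2 of 19 alternative settings. Of 21 immediate early genes, which respond within minutes to stimuli, 4 (19%) were called higher in 129X1, namely Btg2, Atf3 (2.35-fold), Dusp1 (1.70-fold) and Ccn1 (1.66-fold). The last 3 lost their calls under 10 or more of the 19 alternative settings.

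Metabolic lists had shares of called genes both above and below the 6.79% of all genes. Of 38 genes of glutathione and detoxification (13.2% called) 4 were called higher in 129X1, namely Gsto1 (2.46-fold, 2 of 2 probe sets), the heme-breakdown enzyme Blvrb (2.27-fold), Gstt3 (1.46-fold) and the lipid peroxidase Gpx4 (1.36-fold), and 1 higher in SWR, Gpx3. Of 23 genes of cholesterol and fatty acid synthesis 3 were called higher in SWR, Dhcr7 (1.77-fold), Cyp51 (1.41-fold) and Scd2 (1.35-fold), with a median of 0.17; Scd2 lost its call under 10 and Cyp51 under 6 of 19 alternative settings. Of 15 polyamine and methionine genes (26.7% called) Odc1, Mat2b (1.52-fold) and spermidine synthase, Srm (1.45-fold), were higher in SWR and Adi1 (1.60-fold) higher in 129X1. Of 20 amino acid stress genes (15% called) asparagine synthetase, Asns, was 1.45-fold higher in SWR, and Nupr1 (2.86-fold, 2 of 2 probe sets) and Atf3 were higher in 129X1. Gpx4 lost its call under 4, Mat2b under 3, Adi1 under 2 and Gstt3 under 1 of 19 alternative settings. Calls were 1 of 42 for mitochondrial respiration, 2 of 31 for the proteasome and 2 of 20 for ribosomal proteins. Heat shock proteins had 0 of 16. Of 14 complement genes Cd59a, which blocks the membrane attack complex, was 2.15-fold higher in SWR in the brighter of its probe sets and 5.51-fold in the other, and C1s1 1.92-fold higher in 129X1. Of 7 Ly6 and surface marker genes Psca and Ly6d (1.48-fold, a call lost under 10 of 19 alternative settings) were higher in 129X1 and Prom1 (1.90-fold) higher in SWR.

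Luminal and basal keratins were read in both strains. Mean intensities of the luminal keratin Krt8 were 919 in SWR and 874 in 129X1, those of Krt18 1678 and 1562. The basal keratin Krt5 had means of 159 and 219, and Krt17, another of the basal markers, 8.11 and 9.93, below the constant added. The 6 genes of secretions of the neighbouring seminal vesicle had strain means from 1.06 (Svs4 in SWR) to 33.6 (Svs5 in 129X1). Of 12 luminal genes 1 was called (Spint1, 1.75-fold higher in 129X1) and of 10 basal genes 1 (Perp, 1.95-fold higher in SWR). Calls in other cell types were 1 of 12 for smooth muscle and 1 of 10 for endothelium (Emcn, 1.49-fold higher in 129X1). The smooth muscle call was Des, 2.05-fold higher in 129X1 in 1 of 2 probe sets, overlapping, lost under 5 of 19 alternative settings. Skeletal muscle had 1 of 12 (Acta1, 1.77-fold higher in SWR, overlapping, lost under 8 of 19 alternative settings). The luminal, basal, smooth muscle, endothelial and skeletal muscle lists each had 8.33% or 10% called, near the 6.79% of all genes. Calls were 0 each for 13 fibroblast, 8 adipocyte, 3 erythroid, 7 neuroendocrine or nerve and 6 seminal vesicle genes. Of 6 listed erythroid genes 3 were measured. Their mean intensities in SWR and 129X1 were 21.1 and 29.0 for Hba-a1, 9.09 and 8.49 for Slc4a1 and 73.4 and 65.6 for Alas2. Probe sets with more than 1 gene symbol were left out of the lists, so genes read only by such probe sets are not covered. The other 11 skeletal muscle genes had differences below 0, and the list median was -0.34. Luminal list scores ranged from -0.16 to -0.04 in SWR and from -0.02 to 0.08 in 129X1, beside -0.28 to 0.26 over the other 16 arrays.

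Skeletal muscle genes stood apart on the array numbered 4 of each strain. Their list score was 1.11 on SWR replicate 4 and at most -0.14 on the other SWR arrays, and 1.63 on 129X1 replicate 4 and at most 0.05 on the other 129X1 arrays. The secretory transport score was also lowest on both of these arrays within their strains, 0.09 and -0.34, while SWR as a whole ranged from 0.09 to 0.23 and 129X1 from -0.34 to -0.07. Without both arrays numbered 4, 1035 probe sets were called, 938 of them among the 1399, and the lists had 7 calls for secretory transport, 7 for ER folding and 12 for interferon response. With the skeletal muscle score as a covariate 1314 were called. All 24 arrays correlated best with an array of their own strain. Correlations were 0.965 to 0.979 within SWR, 0.963 to 0.974 within 129X1 and 0.947 to 0.961 between them, and the 3′ to 5′ ratio of the Gapdh control, a measure of RNA quality, was 0.84 to 1.17 in SWR and 0.947 to 1.10 in 129X1.

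**Figure D4:**
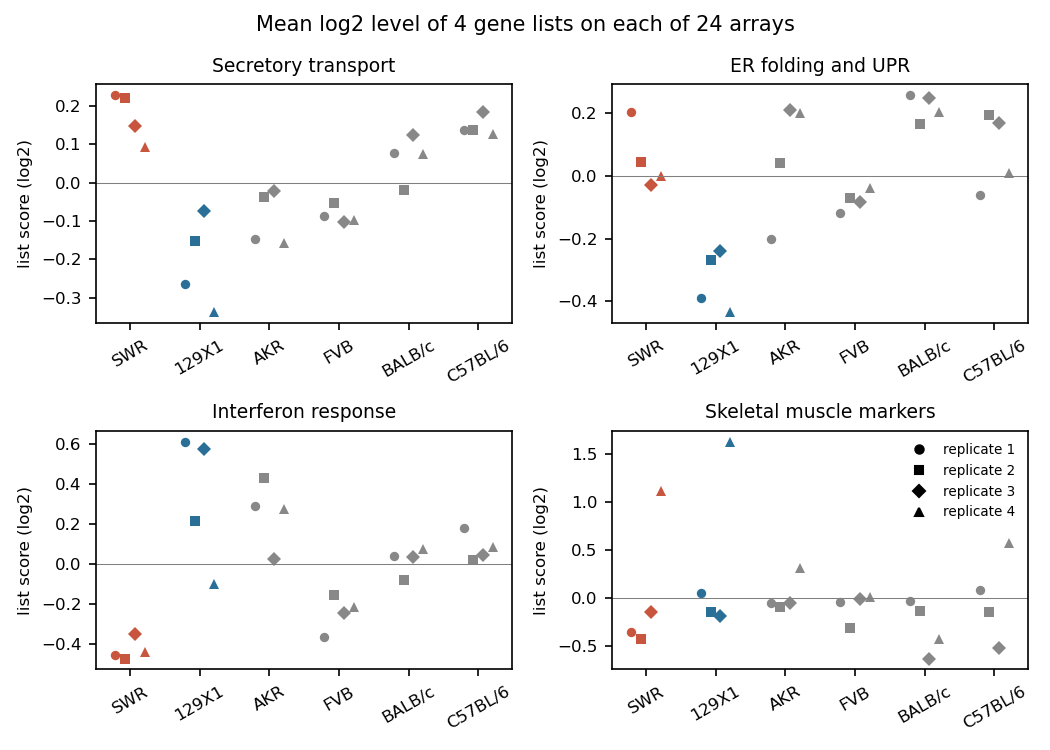
Mean log2 level of 4 gene lists (y axes, each gene centred on its mean over 24 arrays) on every array, by strain (x axis), with symbols for the replicate number, SWR in red, 129X1 in blue and the other strains in grey. Secretory transport and ER folding scores are higher in every SWR array than in any 129X1 array, the interferon score of 129X1 spans -0.10 to 0.61, and the skeletal muscle score is 1.11 and 1.63 on the replicates numbered 4.

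Some called genes were neighbours. With 12369 genes in chromosomal order, 12.3% of the 839 called genes (103) had an adjacent gene called in the same direction, beside 6.78% of all genes called; neighbouring family members can share probes, so this is a description. Among 82 adjacent pairs with both genes called, 55 went one way and 27 opposite ways. Other runs of 3 or more, both higher in 129X1, lay on chromosomes 17 and 19. They were Tapbp, Rgl2 and Pfdn6, and the annexin Anxa1 with the aldehyde dehydrogenases Aldh1a1 and Aldh1a7. The secretoglobins Scgb2b27 and Scgb1b27 were followed by Pdcd2l, with a difference of 0.35. Of 610 genes with at least 2 probe sets and at least 1 called, 74 had all called in one direction, 530 had some not called, and 6 (Anxa7, Dach1, Tgm2, Tmem41b, Trim34a and Uri1) had calls in both directions.

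The other strains fell on both sides. Of the 1399 called probe sets 300 (21.4%) had all 4 other strain means nearer to SWR, and 175 (12.5%) had all 4 nearer to 129X1. Among differences of at least 2-fold these numbers were 69 (24.9%) and 28 (10.1%). All 4 were nearer to SWR in Mt1, Mt2, Serinc3, Psmd6, St6galnac2 and BC018473. All 4 were nearer to 129X1 in Btg2, Clca1, Nupr1 and Usp18. A nearer mean can still lie between the strains. In Usp18 the FVB log2 mean was 5.76, between SWR (5.12) and 129X1 (6.37). In Mt2 the AKR log2 mean was 10.50, between 129X1 (9.37) and SWR (11.47). Of the 12 called secretory transport genes 1 (Ssr4) had all other strains nearer to SWR and 1 (Sar1a) had all nearer to 129X1, and of the 11 interferon genes likewise 1 (Ifi35) and 1 (Usp18). For the other called genes of both lists the 4 strains were divided.

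**Figure D5:**
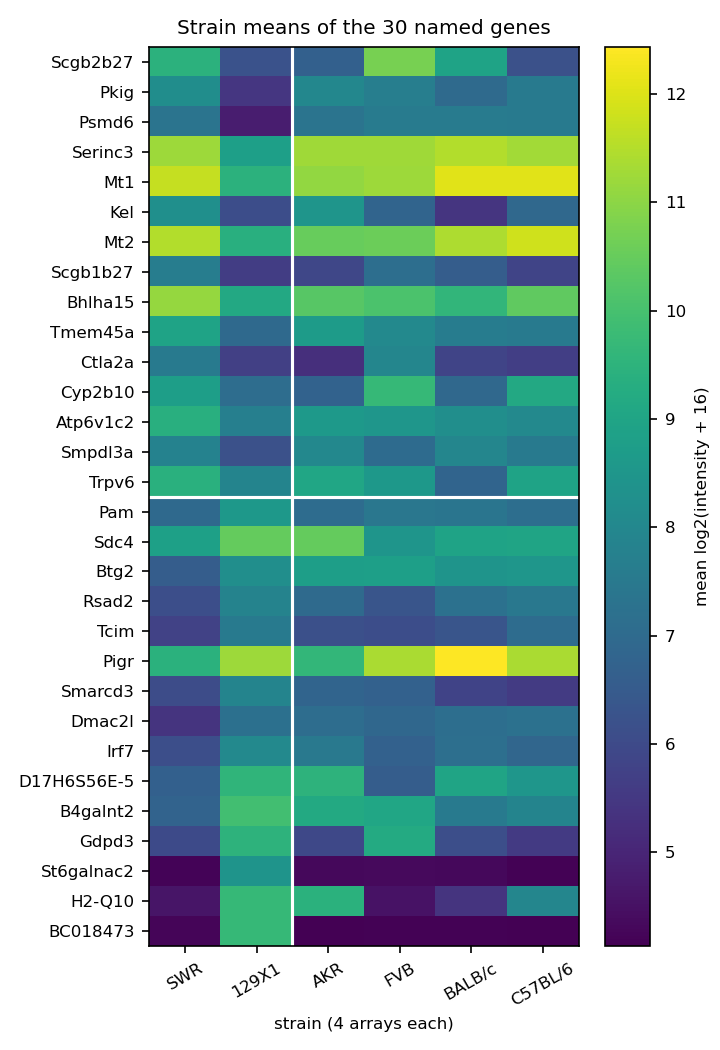
Strain means (4 arrays each) of log2(intensity + 16) for the 30 named genes, one row per gene, with SWR and 129X1 in the left columns and the other 4 strains to the right. St6galnac2 and BC018473 are bright in 129X1 alone (8.43 and 9.70), while Mt1 is lower in 129X1 (9.45) than in the 5 other strains (11.10 to 12.07).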

How the data were processed

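The data were 24 Affymetrix arrays of ventral prostate RNA from 6 mouse strains, 4 per strain, with 8 used here as SWR and 129X1 by sample title. The deposited values are linear intensities, made with MAS5 per the submitters' processing notes; its version and settings are not given in the sources used here. The means of all columns were equal (143.08), so arrays had been scaled before deposit. Each array was rescaled to 1 trimmed mean (2% removed at each end), 16 was added and log2 taken. The 64 control rows were left out, and no filter on low values was applied to the other 22626 probe sets. limma 3.58.1 in R 4.3.3 fitted 1 coefficient per strain over 24 arrays, and p-values were adjusted by Benjamini and Hochberg. The script was tested on simulated data. No read or count depth exists for arrays, so their number limits the precision.

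Gene symbols came from the platform table, updated to RefSeq. Of the tested probe sets 20380 had 1 symbol, 691 several and 1555 none; 20351 matched RefSeq. For lists, the brightest probe set over 24 arrays stood for a gene. Of 698 genes in 36 lists 614 were measured. Named genes were those with an adjusted p under 0.05, strains not overlapping, 1 symbol and a mean of at least 7 in the brighter strain, 1 probe set per gene (the brightest that passed), the 15 largest in each direction, plus list members. The comparison, the lists and the rule were chosen with earlier results of these data known. Alternatives were another constant, a filter, no rescaling, quantile normalization, fewer arrays, a replicate block, an intensity trend, muscle covariates and leaving out each array. Motifs were searched in RefSeq windows of GRCm38.p6.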

Additional observations from a re-analysis of the deposited data

Results flagged for a closer look

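Each group of 4 arrays was checked for a value far from the other 3, and 7 of 132 groups had one; chance gives about 1 in 20. In SWR, BC018473 read 4.68 (log2) on replicate 4 and 4.05 to 4.12 on the others. In 129X1, Tmem45a read 7.29 on replicate 4 and 6.85 to 6.91 on the others, Pigr 10.7 on replicate 4 and 11.33 to 11.46 on the others, and Atp6v1c2 7.27 on replicate 3 and 7.82 to 7.93 on the others. All 4 genes remained called without these arrays. The skeletal muscle score was 1.63 on 129X1 replicate 4 and -0.19 to 0.05 on the others. The prostate secretion score was -0.39 on that array and -0.18 to -0.16 on the others. The amino acid stress score was 0.01 on 129X1 replicate 1 and -0.04 to -0.03 on the others. Of these 7 values 4 came from 129X1 replicate 4, and their causes were not tested.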

How the results depend on the processing

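The 1399 called probe sets became 1583 and 1236 with a constant of 64 or 4, 1454 with a filter on low values, 1400 without rescaling, 1382 after quantile normalization, 1482 with an intensity trend, 1336 with a smooth muscle covariate, 1314 with a skeletal muscle covariate, 1076 with only the 8 arrays and 1035 without both arrays numbered 4. Leaving out single arrays gave 1060 to 1286. At least 2-fold differences numbered 109 with a constant of 64 and 422 with 4, beside 277. Secretory transport calls fell from 12 to 7 with only the 8 arrays and to 7 without both arrays numbered 4, and were 9 to 12 with single arrays left out. ER folding calls were 5 to 11 with single arrays left out, 11 of these without SWR replicate 4, and interferon calls 10 to 13. Of 115 called genes followed by name, 80 kept the call under all 19 alternatives, 35 lost it under at least 1, and 0 reversed; the causes were not tested. The replicate number as a block gave 1312 calls. Same-numbered arrays of the strains had correlations of deviations from 9.63e-05 to 0.0498, so the numbers were not taken as pairs. Faint probe sets, near the added constant, limit the size of any fold read here.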
